A study of Mus musculus with 19 samples.

Results

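The chitinase and chitinase-like genes described here are 6 mouse genes of the glycosyl hydrolase 18 family, Chit1, Chil1, Chil3, Chil4, Chil5 and Ctbs. They were chosen by symbol from the 34432 genes of a bone marrow RNA-seq table, with their values in the double knockout already known. All 6 were found once in the table and passed the filter on low values, a mean of at least 10 normalized counts, which left 13976 genes for testing. Polyadenylated RNA came from the marrow of untreated 8-week-old C57/BL6 mice of 5 genotypes that differ in CDK8 and CDK19, paralogous kinases of the Mediator complex. DKO (n = 4 libraries) carried Cdk8 flox/flox, Vav-iCre and the Cdk19 null allele, CDK8KO (n = 4) Cdk8 flox/flox with Vav-iCre, CDK19KO (n = 4) the Cdk19 null allele, VAV (n = 4) only the Cre transgene, and WT (n = 3) none of these. Vav-iCre expresses Cre in blood cells, so Cdk8 is kept in the other cells of the marrow, whereas the Cdk19 null allele does not depend on Cre. Libraries are numbered in the labels without word of whether each came from its own animal. The p-values therefore rest on library-to-library spread, part of which may be technical.

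Proteins of this family share a barrel fold that binds chains of N-acetylglucosamine, and their catalytic motif ends in a glutamate that donates a proton to the cleaved bond. Chit1, chitotriosidase, keeps this glutamate and cuts chitin; it is known as a product of macrophages, and high plasma activity marks the lipid-laden macrophages of Gaucher disease. The chitinase-like proteins Chil1 (BRP-39, in human YKL-40), Chil3 (Ym1) and Chil4 (Ym2) have lost it, bind sugar chains without cutting them and are secreted by myeloid and epithelial cells, Chil3 also by immature neutrophils. Ctbs, chitobiase, is a lysosomal enzyme that trims the chitobiose core of glycoproteins.

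The stretch of the coding sequence that ends in the codon for the catalytic residue shows which of the members listed below keep the glutamate. It is given 5′ to 3′ from the GENCODE vM21 transcripts, with that last codon in capitals, and acidic chitinase Chia1 stands beside the members for comparison.
Chit1: gatggccttgaccttgactggGAG
Chia1: gatggactggacctggactggGAA
Chil1: gatgggctggatctcgcctggCTC
Chil3: gatggcctcaacctggactggCAG
Chil4: gatggcctcaacctggactggCAG
Chil5: gatggactgaacctggactggCAG
Chit1 and Chia1 end in GAG and GAA, the codons of glutamate. Chil1 ends in CTC, a codon of leucine, and Chil3, Chil4 and Chil5 end in CAG, a codon of glutamine. Chil3 and Chil4 have the same letters over the whole stretch, and Chil5 is close to both. The search pattern did not match Ctbs, so nothing is read here about its catalytic residue.

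The members lie in 3 places of the genome (GRCm38/mm10, GENCODE vM21). Chit1 (ENSMUSG00000026450; chr1:134111242-134151540, plus strand) and Chil1 (ENSMUSG00000064246; chr1:134182176-134190181, plus strand) are neighbours, 30.6 kb apart. Chil5 (ENSMUSG00000043873; chr3:106016919-106032814), Chil3 (ENSMUSG00000040809; chr3:106147554-106167564) and Chil4 (ENSMUSG00000063779; chr3:106201490-106219507) follow each other on the minus strand, with 114.7 kb between Chil5 and Chil3, where Chia1 lies, and 33.9 kb between Chil3 and Chil4. Ctbs (ENSMUSG00000028189; chr3:146449795-146465849, plus strand) stands apart and overlaps Spata1 on the other strand. Whether the counting used strand is not given in the sources used here, so reads of the overlap cannot be told apart; Spata1 averaged 91.3 normalized counts in DKO and 73.1 in VAV, against 875 and 834 for Ctbs.

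Libraries held 14881701 to 33010241 reads assigned to genes. The deposited values are normalized counts, reads divided by a size factor per library. Fold changes were taken after adding 1 to each normalized count and are given as log2, which understates changes of low genes. Cdk19 averaged 1173 ± 43.1 normalized counts in DKO and 1091 ± 62.5 in CDK19KO, against 3668 ± 525 in VAV and 3157 ± 99.7 in WT (SD), as the labels say. Cdk8 averaged 798 ± 62.0 in DKO and 1013 ± 249 in CDK8KO, against 994 ± 230.1 in VAV (SD, n = 4 each). Whole-gene counts cannot show whether an exon was removed, and for Cdk8 the genotype is taken from the labels. Granule genes of maturing neutrophils, 14 markers, took 1.66 to 4.10% of reads in every library, as marrow should. Erythroid transcripts were high in CDK8KO replicate 1 (3.42% of reads) and VAV replicate 3 (3.14%), and muscle transcripts in CDK19KO replicate 4 (0.0757%) and DKO replicate 4 (0.0198%). These libraries were kept, and values without them are given where they matter.

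Chil3 was by far the most abundant member in every genotype. On a scale of normalized counts per kilobase of the longest coding transcript, Chil3 averaged 24340.4 in DKO and 40437 in WT. Chil1 came next, with 4293 per kilobase in DKO and 1983 in WT. Chil4 averaged 765 in DKO and 1185 in WT on this scale. The other 3 were low and ranked differently: DKO held 366 of Chil5, 303 of Ctbs and 289 of Chit1 per kilobase, whereas WT held 76.4 of Chil5, 244 of Ctbs and 37.5 of Chit1. Summed over the 6 members, the family took 0.195 to 0.247% of reads in DKO, 0.207 to 0.375% in VAV and 0.273 to 0.383% in WT. It took 0.183 to 0.275% in CDK8KO and 0.197 to 0.248% in CDK19KO, so the DKO range was shared by the single knockouts. Of the other family genes, Chia1 had no read in any of the 19 libraries, where a count of 0 allows up to 3 reads per library for counting error only. Chil6 reached at most 3.32 normalized counts. Chid1 (229 to 466 normalized counts) and the oviduct glycoprotein gene Ovgp1 (67.0 to 192) were tested, and neither passed the threshold in any of the 7 comparisons by limma, edgeR or DESeq2, nor had an unadjusted p under 0.05.

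**Figure D1:**
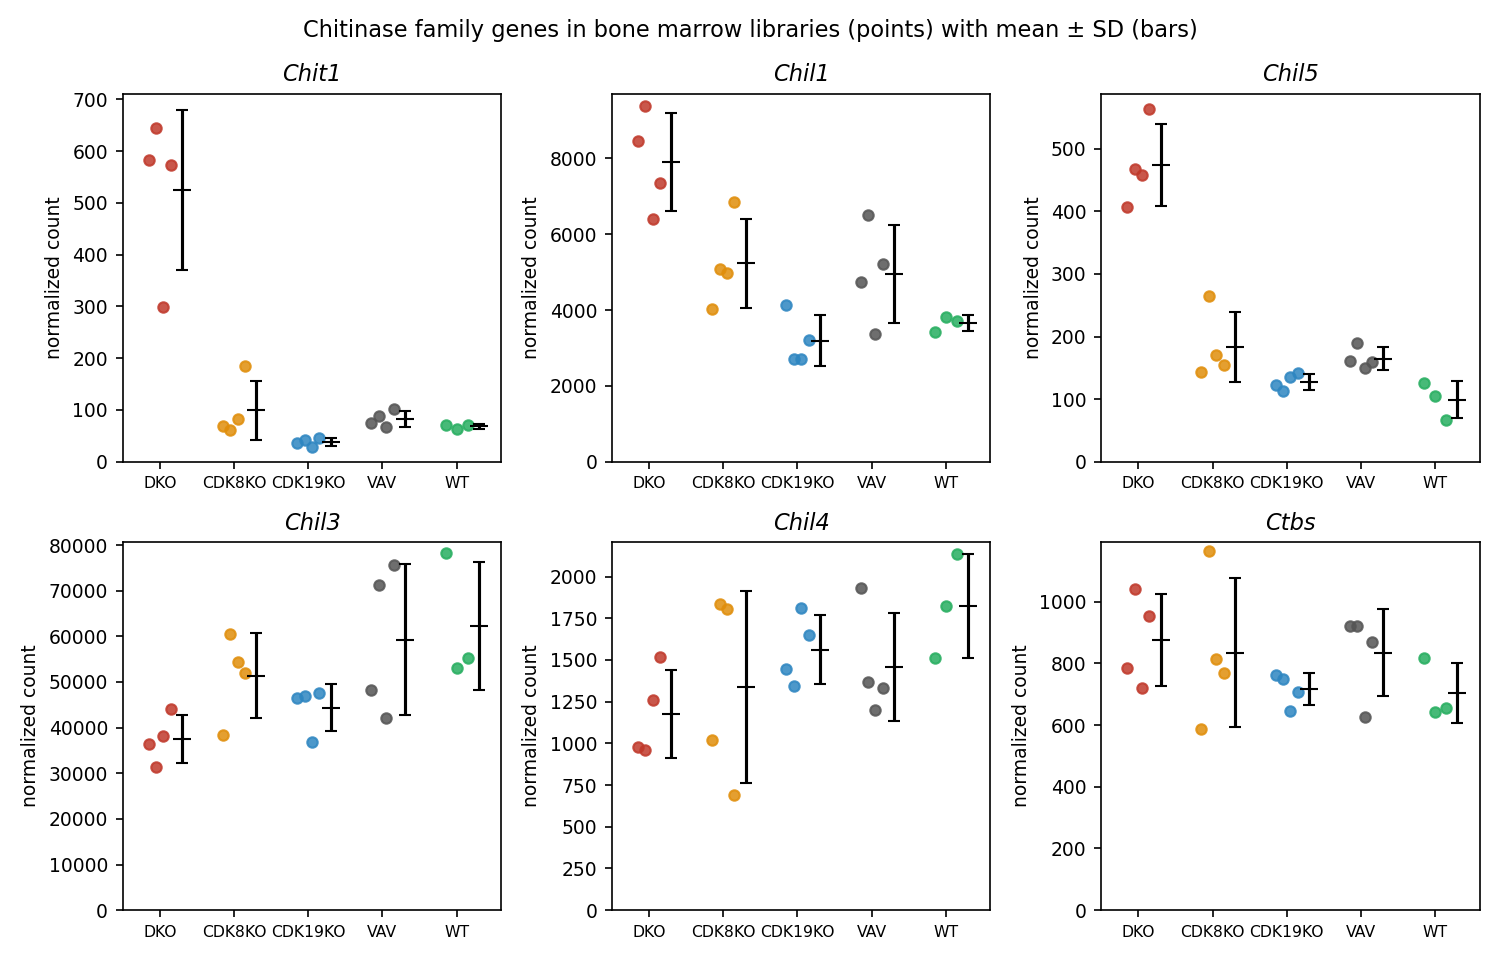
Normalized counts (linear axes from 0) of the 6 genes in each library, by genotype; points are libraries and bars beside them are the mean ± SD (n = 4, WT n = 3). Chit1 and Chil5 lie higher in each DKO library than in any other library, and Chil3 is lowest on average in DKO.

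Chit1 was the member that set DKO marrow apart most. Its level was 583, 644, 299 and 574 normalized counts in DKO replicates 1 to 4. CDK8KO libraries held 69.6, 61.2, 83.2 and 184, CDK19KO libraries 36.6, 41.6, 29.0 and 45.9, VAV libraries 74.9, 89.0, 67.1 and 102, and WT libraries 71.3, 62.5 and 70.3. Each of the 4 DKO libraries lay above each of the 15 others, and the lowest DKO library was 1.63-fold above the highest other library, CDK8KO replicate 4. Of all genes tested, 0.851% had this order. The members were chosen with these values known, so this order and the DKO differences below are descriptions. In bulk marrow, a change in the number of cells of a type and a change in RNA per cell cannot be told apart. The means were 525 ± 154 in DKO, 99.4 ± 57.0 in CDK8KO, 38.3 ± 7.25 in CDK19KO, 83.1 ± 15.2 in VAV and 68.0 ± 4.83 in WT (SD). CDK8KO overlapped with VAV and VAV with WT, whereas the CDK19KO libraries were all below the WT libraries. Chit1 was a low transcript, with 284 to 744 reads in DKO libraries, 77 to 122 in VAV and 30 to 49 in CDK19KO, so counting error is largest in CDK19KO.

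The differences of Chit1 between DKO and the other genotypes were, as log2 fold changes, 2.60 ± 0.30 against VAV (SE; 6.07-fold), 2.47 ± 0.30 against CDK8KO (5.55-fold) and 3.70 ± 0.30 against CDK19KO (13-fold). DKO against CDK8KO shows the added loss of Cdk19 where Cdk8 is deleted, and CDK19KO against WT shows Cdk19 loss alone. In CDK19KO against WT the value of Chit1 was -0.83 ± 0.32. The difference between the pairs, the interaction, was 3.30 ± 0.44 on the log2 scale. DKO and CDK8KO carry Vav-iCre, and CDK19KO and WT do not, so Cdk8 deletion and the transgene cannot be told apart in it. The difference from VAV was 2.54 ± 0.34 without the libraries rich in muscle transcripts and 2.51 ± 0.32 without those rich in erythroid transcripts.

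Chil5, a chitinase-like gene next to Ym1 and Ym2, was the other member whose DKO libraries stood clear. It had 408, 468, 458 and 564 normalized counts in DKO. CDK8KO libraries held 143, 265, 171 and 154, CDK19KO libraries 122, 112, 135 and 141, VAV libraries 161, 190.3, 149 and 159, and WT libraries 125, 105 and 66.5. The lowest DKO library was 1.54-fold above the highest other library, CDK8KO replicate 2. Unlike Chit1, Chil5 varied little within DKO, with a coefficient of variation of 13.7% against 29.3% for Chit1. The means were 474 ± 65.1 in DKO, 183 ± 55.3 in CDK8KO, 128 ± 13 in CDK19KO, 165 ± 17.9 in VAV and 99.0 ± 29.9 in WT (SD). DKO differed by 1.52 ± 0.21 from VAV (SE; 2.86-fold), by 1.4 ± 0.21 from CDK8KO (2.64-fold) and by 1.88 ± 0.21 from CDK19KO (3.69-fold) on the log2 scale. The interaction of Chil5 was 1.0 ± 0.30.

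Chil1, the secreted lectin BRP-39, was high in DKO with less distance from the other genotypes. Its level was 8454, 9368, 6404 and 7356 normalized counts in DKO. CDK8KO libraries held 4037, 5084, 4972 and 6844, CDK19KO libraries 4126, 2704, 2699.8 and 3208, VAV libraries 4732, 6503, 3372 and 5224, and WT libraries 3409, 3817 and 3715. Of the 4 DKO libraries 3 lay above all others, and replicate 3 lay below CDK8KO replicate 4 and VAV replicate 2. DKO and CDK19KO did not overlap, with a log2 difference of 1.32 ± 0.19 (2.49-fold). Against VAV the difference was 0.70 ± 0.19 and against CDK8KO 0.60 ± 0.19, with overlapping libraries. Each genotype overlapped with the next in the order DKO, CDK8KO, VAV, WT, CDK19KO, with means of 7895 ± 1291, 5234 ± 1172, 4958 ± 1294, 3647 ± 213 and 3184 ± 671 (SD).

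**Figure D2:**
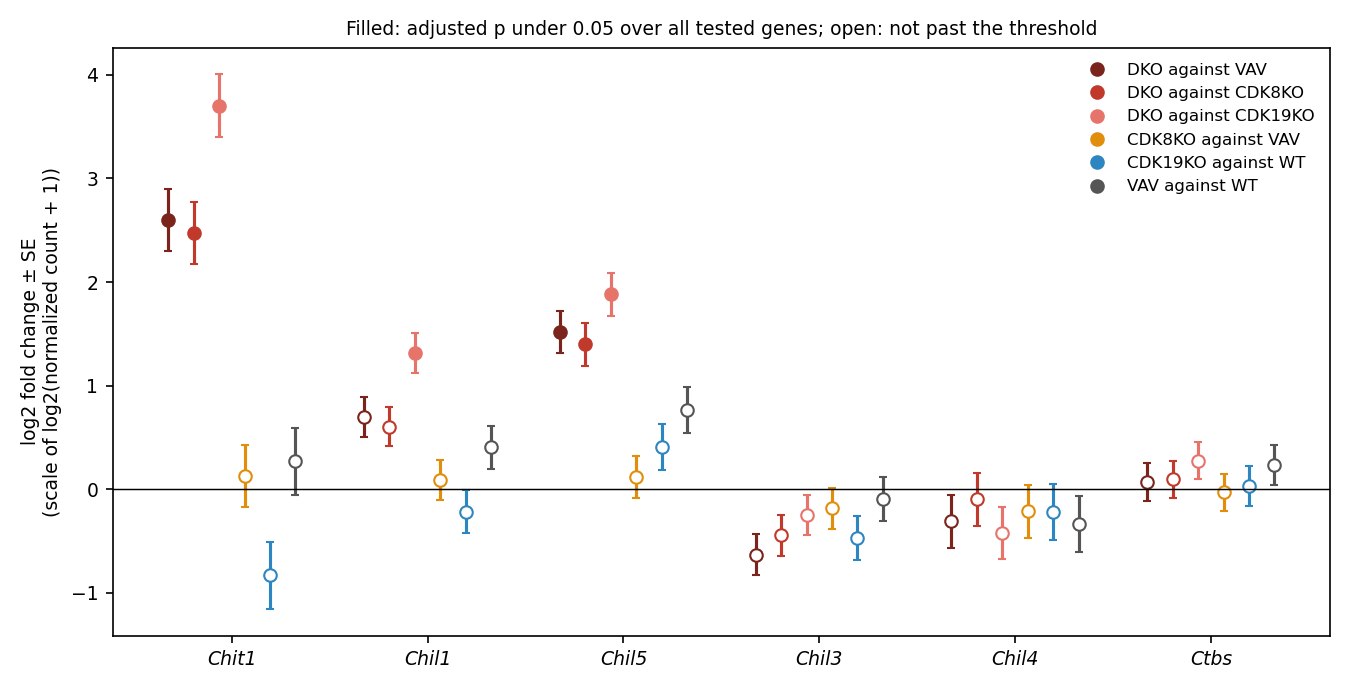
Log2 fold change ± SE of the 6 genes in the 6 pairwise comparisons, as log2(normalized count + 1); filled points had an adjusted p under 0.05 by limma over all tested genes, which for the DKO comparisons is a description since the genes were chosen on them. Chit1 and Chil5 stand above 1 in all 3 comparisons that contain DKO, Chil1 only against CDK19KO, and Chil3 lies below 0 in these 3.

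Chil3, Ym1, ran the other way. Its level was 36411, 31262, 38073 and 44093 normalized counts in DKO. CDK8KO libraries held 38465, 60538, 54289 and 51988, CDK19KO libraries 46377, 46965, 36781 and 47475, VAV libraries 48323, 71139.9, 42093 and 75539, and WT libraries 78309, 53071 and 55318. Of the DKO libraries 2 lay below all 15 others, and DKO replicate 4 overlapped with VAV replicate 3. The log2 difference was -0.63 ± 0.20 against VAV, -0.45 ± 0.20 against CDK8KO and -0.25 ± 0.20 against CDK19KO. Chil3 did not pass by limma in any of these comparisons. Without the libraries rich in erythroid transcripts, of which VAV replicate 3 is one, it was -0.78 ± 0.18 against VAV. That alternative was chosen after seeing the data and gave the largest difference. Over all 21 alternatives the value against VAV ranged from -0.78 to -0.50, and Chil3 passed in 4.

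Chil4, Ym2, and the lysosomal Ctbs showed no such separation. Chil4 had 977, 957, 1261 and 1515 normalized counts in DKO. It ranged from 690.2 to 1837 in CDK8KO, from 1342 to 1809 in CDK19KO, from 1198 to 1929 in VAV and from 1511 to 2134 in WT, and each genotype overlapped with the next in order of level. The difference of Chil4 between DKO and VAV was -0.31 ± 0.25 on the log2 scale. Ctbs had 786, 1040.5, 719 and 955 in DKO, against 920.4, 922, 627 and 868 in VAV, a log2 difference of 0.07 ± 0.18. Its genotype means lay between 704 ± 97.0 in WT and 875 ± 148 in DKO (SD), with all genotypes overlapping.

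The makeup of the family, as shares of its summed level per kilobase, stood apart in DKO. Chil3 made up 80.0 ± 3.71% in DKO, against 90.1 ± 1.73% in VAV and 91.7 ± 1.97% in WT (SD over libraries). Chil1 made up 14.4 ± 3.46% in DKO, against 6.37 ± 0.852% in VAV. Chil5 made up 1.21 ± 0.118% in DKO, against 0.311 ± 0.0661% in VAV. Chit1 made up 0.963 ± 0.318% in DKO, against 0.110 ± 0.0115% in VAV. The Chil3 share was 74.9 to 83.0% in the DKO libraries, against 87.9 to 92.1% in the VAV libraries, so the groups did not overlap in this share.

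Counted over the 6 members, 2 had an adjusted p under 0.05 in DKO against VAV (Chit1 and Chil5), where 1.52% of all tested genes did. The count was 2, the same pair, against CDK8KO (background 1.7%), and 3 against CDK19KO, Chil1 included (background 2%). For the interaction it was 1, Chit1 (background 0.15%). Since the choice of the members used DKO values, these counts are no test of the members, and nothing is read from them. Chit1 and Chil5 were also the members without overlap, both higher, in DKO against VAV (4.16% of all tested genes) and against CDK8KO (3.63%), joined by Chil1 against CDK19KO (7.27%). The 3 DKO comparisons also share the DKO libraries, and their values are set side by side only. By DESeq2 the count against VAV was 4, with Chil1 and Chil3 added, where 504 of all genes passed.

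The comparisons without DKO tested whether either kinase alone, or the Cre transgene, makes the family differ. CDK8KO against VAV addresses Cdk8 deletion alone, and no member passed by limma, edgeR or DESeq2. No gene of the whole table passed by limma either (background 0%), with 1161 at an unadjusted p under 0.05, and by DESeq2 1 gene passed. None of the 6 members had an unadjusted p under 0.05. Chit1 averaged 99.4 in CDK8KO and 83.1 in VAV (log2 fold change 0.13 ± 0.30, limma adjusted p = 0.894), and the sign of this value hung on CDK8KO replicate 4, at 184, since without it the value was -0.21 ± 0.25. Chil5 differed by 0.12 ± 0.21 (limma adjusted p = 0.863), Chil1 by 0.09 ± 0.19 (0.884), Chil3 by -0.18 ± 0.20 (0.772), Chil4 by -0.21 ± 0.25 (0.796) and Ctbs by -0.03 ± 0.18 (0.968). All 6 genes overlapped between these genotypes, where 1.76% of all tested genes did not.

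CDK19KO against WT addresses Cdk19 loss alone, and here too no member passed by limma, edgeR or DESeq2 (background 0.0215%, which is 3 genes). At an unadjusted p under 0.05 stood 2 members, Chit1 and Chil3, both of which were lower in every CDK19KO library than in any WT library. Such a p was found for 429 of the 13976 genes tested. Of all tested genes 4.04% were separated in this direction. Chit1 averaged 38.3 ± 7.25 in CDK19KO and 68.0 ± 4.83 in WT, 56.3% of WT (log2 fold change -0.83 ± 0.32, limma adjusted p = 1). Chil3 averaged 44399 ± 5099 in CDK19KO and 62233 ± 13968 in WT, 71.3% of WT (log2 fold change -0.47 ± 0.21, limma adjusted p = 1). WT replicate 1, at 78309, was the highest of the 19 libraries, and without it the value was -0.30 ± 0.23. The other 4 members overlapped, with log2 fold changes from -0.22 (Chil1 and Chil4) to 0.40 (Chil5).

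VAV against WT shows what the Cre transgene and its background change, and 0 members passed by limma, edgeR or DESeq2 (background 0.093%, 13 genes). The number of genes that passed here hung on the libraries: it was 416 without VAV replicate 3, 1060 without both libraries rich in erythroid transcripts and 640 with libraries weighted by quality. Chil5 was the member with an unadjusted p under 0.05. Of all tested genes 2068 had such a p, so it alone does not set Chil5 apart. Chil5 had every VAV library above every WT library, an order that 6.93% of all tested genes had. It averaged 165 ± 17.9 in VAV and 99.0 ± 29.9 in WT, 166% of WT (log2 fold change 0.77 ± 0.22, limma adjusted p = 0.148). It passed in the last 2 of these settings, in which many more genes passed (adjusted p = 0.044 without the erythroid-rich libraries and 0.0336 with weights), while over all alternatives this adjusted p ranged up to 0.616. WT replicate 3, at 66.5, was the lowest of the 19 libraries, and without it the value was 0.51 ± 0.22 (adjusted p = 0.616). Chil1 differed by 0.41 ± 0.21 (limma adjusted p = 0.368), and the others by -0.33 to 0.27.

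Reads of Chil3 and Chil4 may be partly shared. Their longest coding transcripts were 94.4% identical over 1538 aligned bases, and 31.1% of the 31-base words of either were also in the other. Chil4 stood at 1.33 to 4.92% of the Chil3 level per kilobase over the libraries, so a small misassignment of Chil3 reads would weigh on Chil4, and its values are uncertain. Chil3 and Chil5 were 76.0% identical and shared 0.133% of the words of Chil3. No other pair of members shared any such word, Chit1 and Chil1 included, which were 65.4% identical.

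The windows around the transcript starts were searched for motifs, and the members that were high in DKO had none in common. Sequences are from RefSeq (GRCm38.p6), 250 bases before to 50 after the start, and all 6 members were found there. These starts matched the GENCODE coordinates given above for Chit1 and Chil3 only. The Chil5 window lies wholly outside the gene as given above, the Ctbs window begins inside its gene, and the Chil4 start lies inside its gene. Motif positions and the lack of a motif therefore hold for these windows alone. Those of Chit1 (chr1:134110992-134111291, plus strand) and Chil5 (chr3:106032846-106033145, minus strand) are shown because these genes were highest in DKO, and those of Chil3 (chr3:106167515-106167814, minus strand) and Chil4 (chr3:106219430-106219729, minus strand) for contrast. Capitals mark motif matches, 5′ to 3′ on the strand of the gene.
Chit1: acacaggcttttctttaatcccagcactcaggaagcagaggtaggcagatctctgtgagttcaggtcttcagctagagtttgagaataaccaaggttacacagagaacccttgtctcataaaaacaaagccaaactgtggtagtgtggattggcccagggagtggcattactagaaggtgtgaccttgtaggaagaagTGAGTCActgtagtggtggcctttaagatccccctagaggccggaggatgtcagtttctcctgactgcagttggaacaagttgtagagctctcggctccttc
Chil5: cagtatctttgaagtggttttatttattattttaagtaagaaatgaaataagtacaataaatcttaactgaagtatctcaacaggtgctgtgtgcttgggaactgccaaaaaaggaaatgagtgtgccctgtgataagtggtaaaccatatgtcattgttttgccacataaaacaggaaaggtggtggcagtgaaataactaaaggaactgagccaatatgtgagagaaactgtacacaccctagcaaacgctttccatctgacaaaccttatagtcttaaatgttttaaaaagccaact
Chil3: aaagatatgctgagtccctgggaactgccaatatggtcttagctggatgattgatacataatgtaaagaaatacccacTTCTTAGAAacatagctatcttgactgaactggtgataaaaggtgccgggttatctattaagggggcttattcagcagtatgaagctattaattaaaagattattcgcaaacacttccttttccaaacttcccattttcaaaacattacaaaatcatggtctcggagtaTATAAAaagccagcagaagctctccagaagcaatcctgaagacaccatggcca
Chil4: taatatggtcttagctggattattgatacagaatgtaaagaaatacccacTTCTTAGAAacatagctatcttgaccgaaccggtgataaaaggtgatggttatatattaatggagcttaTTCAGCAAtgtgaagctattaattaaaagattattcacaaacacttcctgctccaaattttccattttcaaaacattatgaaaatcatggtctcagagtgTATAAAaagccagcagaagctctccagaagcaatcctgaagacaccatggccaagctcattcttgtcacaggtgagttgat
Motifs were searched on both strands, and were chosen after the sequences were seen. Chit1 held an AP-1 motif (TGANTCA) at base -52 from the start, which 7.81% of 32817 promoters of this length also held. Chil3 and Chil4 both held a STAT motif (TTCNNNGAA; 8.29% of promoters), at -172 and -200, and a TATAAA motif (13.6%), at -3 and -31. Chil4 also held a C/EBP motif (TTGCNNAA; 10.8%) on the reverse strand at -131. Their windows were 93.0% identical over 270 aligned bases. Chil5, Chil1 and Ctbs held none of the 6 motifs searched, which also included the STAT6 form of the STAT motif, with 1 more base between its ends (6.94%), and GAGGAA of PU.1 (28.3%). A match is a description of letters and not of a bound site.

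Genes near the members were compared in DKO against VAV, with the window set at 200 kb. They were picked by distance only. Around Chit1, the values of the neighbours lay far below that of Chit1: Btg2, an antiproliferative gene, differed by -0.22 ± 0.18 on the log2 scale, Prelp by -0.61 ± 0.46, Tmem183a by 0.05 ± 0.13 and Ppfia4 by 0.35 ± 0.19, and none passed. Around Chil5, Ovgp1 differed by 0.01 ± 0.28, Wdr77 by 0.07 ± 0.08, Atp5pb by 0.29 ± 0.14 and I830077J02Rik by 0.09 ± 0.13. Adora3, an adenosine receptor gene 108 kb from Chil5, averaged 230.0 in DKO and 64.4 in VAV (1.90 ± 0.46, limma adjusted p = 0.0424). Adora3 and Dnase2b are singled out after their values were seen. Of the 5 genes near Ctbs besides Spata1, Dnase2b, an acid nuclease gene 115.1 kb away, averaged 30.8 in DKO and 4.56 in VAV (2.63 ± 0.48, limma adjusted p = 0.00690). Its VAV mean is near the level of 3 reads, 2.19 to 2.68 normalized counts in VAV libraries, so its fold change is uncertain. Rpf1 differed by -0.04 ± 0.11, Gng5 by -0.15 ± 0.16, Ssx2ip by -0.35 ± 0.26 and Samd13 by 1.64 ± 0.88, and none of these passed.

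**Figure D3:**
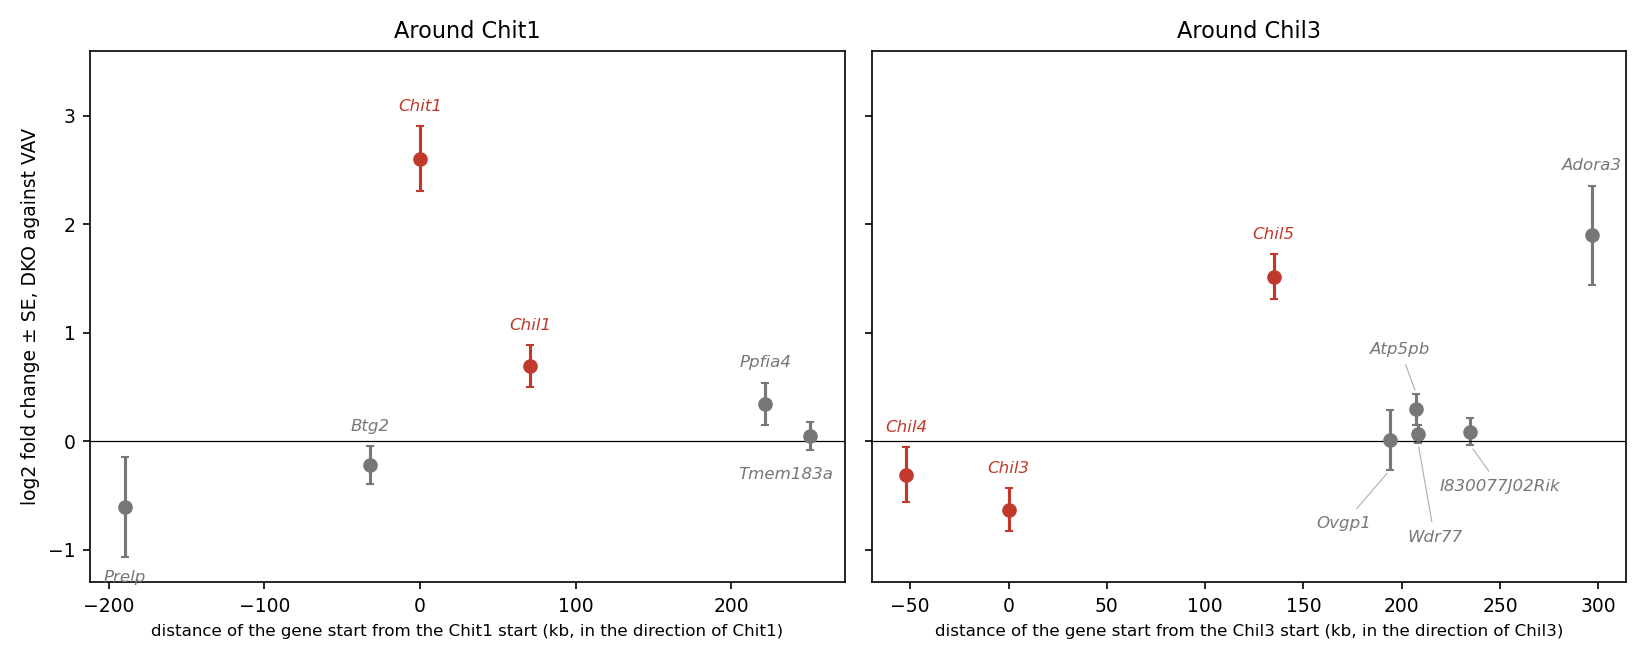
Log2 fold change ± SE in DKO against VAV of the tested genes near Chit1 (left) and near Chil3 and Chil5 (right), against the distance of each gene start from the start of Chit1 or Chil3 in kb, with members in red. Chit1 lies at 2.60 and Chil1 at 0.70, with the genes on either side between -0.61 and 0.35; Chil5 and Adora3 are high on the right, with genes near 0 between them.

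The members did not vary as a unit from library to library. Pearson's r on log2 values was computed over the 19 libraries, and again with each genotype's mean removed; depth and genotype are shared by these points, and the values are descriptions. Chit1 and Chil1 had r = 0.89 over the libraries and 0.63 without genotype means. Chit1 and Chil5 had r = 0.84 over the libraries and -0.19 without genotype means, so their likeness was one of genotypes and not of libraries within a genotype. Chil1 and Chil5 likewise had 0.79 and 0.08. Chil3 had r = 0.52 with Chil5 and 0.62 with Ctbs without genotype means, and Chit1 and Chil4 had -0.57. The DKO libraries show this: replicate 3 was lowest in Chit1 and in Chil1, while replicate 1 was lowest in Chil5.

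Genes most like each member were named by the highest r among 11175 genes with a mean of at least 50. For Chit1 they were Ifit1bl1 (0.91), Ednra, an endothelin receptor (0.90), and Fam20c, a secretory kinase (0.90). For Chil5 they were the uridine phosphorylase Upp1 (0.94), Ednra (0.92) and the Notch ligand Jag1 (0.91). For Chil1 they were Ednra (0.91), Lima1 (0.90) and the fatty acid receptor Gpr84 (0.89). Ednra was thus among the closest genes of all 3 members that were high in DKO, at 453 normalized counts in DKO, 232 in CDK8KO, 139 in CDK19KO, 212 in VAV and 138 in WT. Without genotype means these values were lower, between 0.39 and 0.60 for the genes named for Chit1 and Chil5. Chil3 was closest to Crispld2 (0.80), the neutrophil collagenase Mmp8 (0.78) and G3bp2 (0.78), Chil4 to Ralgps1 (0.85), Prdm9 (0.82) and the insulin receptor Insr (0.81), and Ctbs to Itfg1 (0.92), Cyrib (0.92) and Mgst1 (0.91). For Ctbs the values stayed at 0.91 to 0.93 without genotype means.

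Genes of the cells that could carry these transcripts were counted in the same comparison, DKO against VAV, where the median log2 fold change of all tested genes was -0.01. All lists were chosen with earlier results of these data known, and their part in the members' values was not tested. Of 16 macrophage genes tested, 4 were higher and 12 lower in DKO (median -0.29), and 3 had an adjusted p under 0.05, all lower. These were the hemoglobin scavenger receptor Cd163 (67.0 in DKO and 550.4 in VAV), Cd5l (49.3 in DKO and 131 in VAV) and the heme oxygenase Hmox1 (2312 in DKO and 4673 in VAV). The summed macrophage list took 0.0940 to 0.142% of reads in DKO and 0.102 to 0.132% in VAV, and these ranges overlapped. Osteoclast genes, 7 tested, had a median of 0.06; none passed by limma, edgeR or DESeq2, and 1 had an unadjusted p under 0.05.

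Genes of neutrophil granules, which mark the cells in which Chil3 is known, were lower for 12 of 14 (median -0.19), and 3 passed, all lower: the cathelicidin Camp (12433 in DKO and 22446 in VAV), the collagenase Mmp8 (15659 in DKO and 32379 in VAV) and Olfm4 (1505 in DKO and 3215 in VAV). Their summed share of reads was 1.79 to 2.97% in DKO, 2.20 to 4.10% in VAV and 2.08 to 2.69% in WT. The direction of this list depended on the reference, since in VAV against WT 13 of 14 were higher (median 0.58). DKO was higher than CDK19KO for 11 of 14 (median 0.22) and than CDK8KO for 8 of 14 (median 0.02). Against CDK8KO 3 passed, all lower, and against CDK19KO 1 passed higher and 1 lower. In DKO against VAV, 3 of 12 monocyte genes were higher and 9 lower (median -0.17). None passed by limma or edgeR, 1 did by DESeq2, and 3 had an unadjusted p under 0.05. This list too was higher in VAV than in WT, for 11 of 12 (median 0.36). In DKO, 8 of 12 were higher against CDK19KO and 8 lower against CDK8KO.

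Eosinophil genes, like Chit1 and Chil5, were higher in DKO than in VAV. All 8 were higher in DKO (median 2.05), and 5 passed, where 1.52% of all tested genes did. Among them were the major basic protein Prg2 (3365 in DKO and 480 in VAV) and the peroxidase Epx (1906 in DKO and 373 in VAV). Against CDK8KO all 8 were higher and 5 passed. Against CDK19KO 7 of 8 were higher (median 1.04) and none passed by limma. VAV itself was lower than WT for 7 of 8 (median -0.79). Their summed share was 0.0169 to 0.0796% of reads in DKO, 0.00449 to 0.00888% in CDK8KO, 0.0108 to 0.0258% in CDK19KO, 0.00572 to 0.0111% in VAV and 0.0104 to 0.0133% in WT. Within DKO, replicate 3 had the highest eosinophil share, 0.0796%, and the lowest Chit1, 299. CDK19KO libraries had more eosinophil reads than most VAV libraries and the lowest Chit1 of all genotypes. The part of eosinophils in the levels of Chit1 and Chil5 was not tested.

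**Figure D4:**
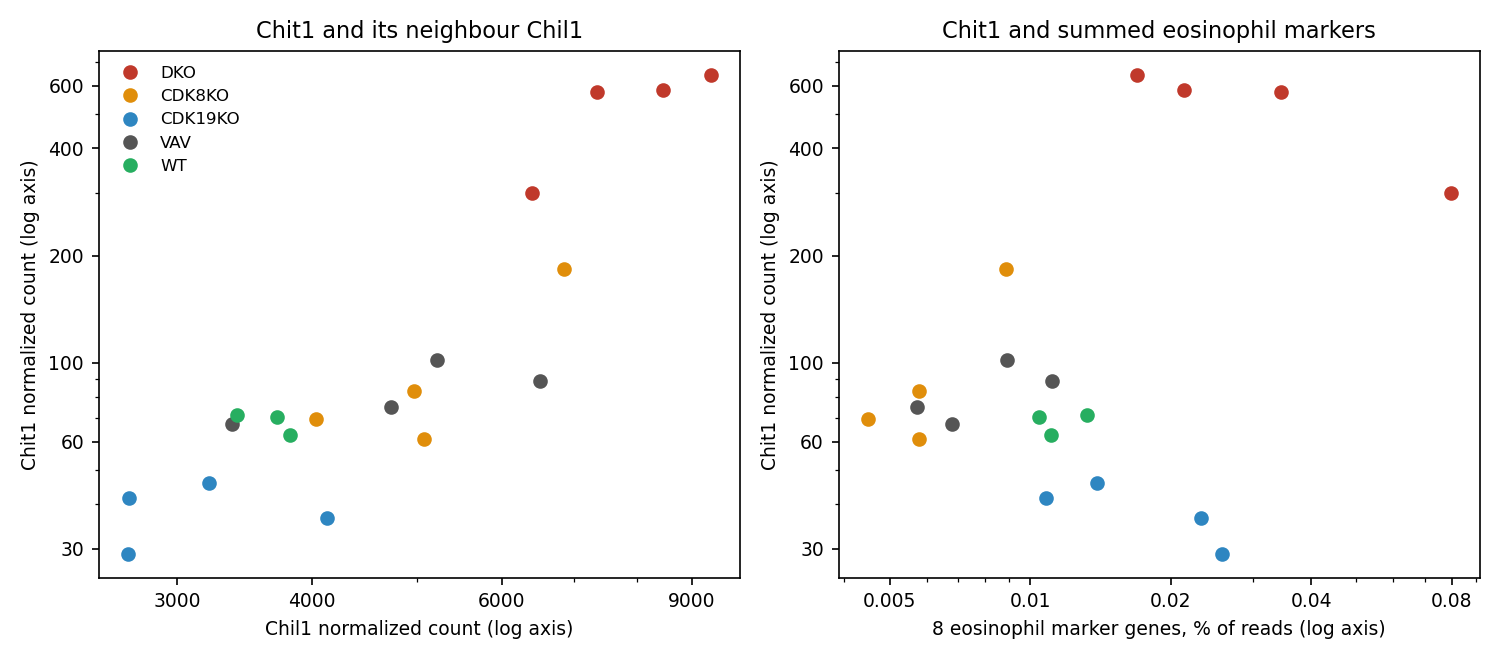
Chit1 normalized counts per library against those of Chil1 (left) and against the percent of reads in 8 eosinophil marker genes (right), on log axes, coloured by genotype. On the left the DKO libraries are at the upper right, with replicate 3 lowest in both; on the right that library has the highest eosinophil share, 0.0796%, and the CDK19KO libraries are lowest in Chit1.

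Few genes that work with the members differed. Of 6 tested receptors and partners reported for chitinase-like proteins (Tmem219, Il13ra2, Lgals3, Cd44, Ager and Clec7a), 2 were higher and 4 lower in DKO against VAV (median -0.09); none passed by limma, edgeR or DESeq2, nor had an unadjusted p under 0.05. Of 16 lysosomal genes of glycan breakdown, the pathway of Ctbs, 5 were higher and 11 lower (median -0.05); none passed by limma, edgeR or DESeq2, and 3 had an unadjusted p under 0.05. Ym1 and Ym2 are known targets of interleukin-4 and interleukin-13 in macrophages. Of 12 tested genes of that response 6 were higher and 6 lower in DKO against VAV (median 0.05); none passed by limma, 1 did by edgeR and 1 by DESeq2, and 2 had an unadjusted p under 0.05. Alox15, a lipoxygenase also abundant in eosinophils, averaged 604 ± 503 in DKO and 111 ± 50.5 in VAV (SD; 2.09 ± 0.55, limma adjusted p = 0.0714). The receptor chain Il4ra averaged 1514 ± 123 in DKO and 1409 ± 195 in VAV (0.11 ± 0.16, limma adjusted p = 0.769). In CDK19KO against WT it was lower, 1048 ± 206 against 2224 ± 313 (-1.09 ± 0.17, limma adjusted p = 0.0237). Of the 12 genes of the response, 7 were higher and 5 lower in that comparison (median 0.06). A part of Il4ra in the levels of Chil3 and Chil4 was not tested.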

How the data were processed

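Bone marrow RNA of 5 mouse genotypes was measured by polyA RNA-seq in 19 libraries. The authors deposited 1 table of normalized counts, a signal per gene and library; Salmon 1.4.0, DESeq2 and mm10 are named in the submitters' processing notes, with no role or order, and the annotation release and strand setting are not given in the sources used here. Every deposited value was a whole number of reads over 1 factor per library (100% within 0.001 read), so reads were recovered. All columns were used (0 left out), and every row names a gene.

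Limma 3.58.1 (trend) was fitted in R 4.3.3 to log2(normalized count + 1) of all 5 genotypes over 13976 genes with a mean of at least 10, with Benjamini-Hochberg adjustment over these genes and a threshold of 0.05. The interaction is DKO minus CDK8KO, minus the difference CDK19KO minus WT. The Cre transgene differs between these pairs as well as Cdk8. EdgeR 4.0.16 and DESeq2 1.42.0 on the recovered reads, other pseudocounts, filters and scalings, a replicate block, array weights and libraries left out were alternatives. The scripts were tested on simulated data. Sequences and annotation were read with Python 3.11.15 and Biopython 1.88, and figures drawn with matplotlib 3.10.9; 34415 of 34432 gene IDs matched GENCODE vM21.

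The members and lists were chosen with earlier results of these data known, so comparisons that contain DKO describe the members and do not test them: no p-value of a member is printed, and members past the threshold are counted beside the share of all genes. Named genes are the 6 members, the 4 other family genes, list genes that passed in a comparison (at most 6 a list), neighbours within 200 kb and, for each member, the 3 genes of highest correlation. With 14881701 to 33010241 reads per library, a count of 0 allows up to 3 reads, for counting error only.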

Additional observations from a re-analysis of the deposited data

Results flagged for a closer look

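Chil3 in CDK19KO had 1 library far from the others: replicate 3 held 36781 normalized counts, against 46377, 46965 and 47475 in the other 3. Its gap to the nearest library was 0.897 of the group's range, above Dixon's critical value for 4 libraries. It was the only such library in 24 groups of 4 checked for the 6 members, and chance gives about 1 in 20. Chil4 was highest of its genotype in the same library, 1809 normalized counts, and Chit1 lowest, 29.0. Without it, the log2 fold change of Chil3 in CDK19KO against WT was -0.38 ± 0.23, against -0.47 ± 0.21 with it (SE). Leaving out WT replicate 1 moved it further, to -0.30 ± 0.23.

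The change of Chit1 on loss of Cdk19 differed between the Cdk8-deleted genotypes, which carry Vav-iCre, and the Cdk8-intact genotypes without Cre. Cdk8 deletion and the Cre transgene cannot be told apart here. The interaction was 3.30 ± 0.44 on the log2 scale (SE), with DKO minus CDK8KO at 2.47 ± 0.30 and CDK19KO minus WT at -0.83 ± 0.32. All 4 DKO libraries were above all 4 CDK8KO libraries, and all 4 CDK19KO libraries were below all 3 WT libraries. Of all tested genes 0.15% passed this comparison. Chit1 was chosen with its DKO values known, so this is a description.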

How the results depend on the processing

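The calls of Chit1 and Chil5 in DKO against VAV, CDK8KO and CDK19KO, of Chil1 against CDK19KO and of Chit1 in the interaction were made in every alternative run; these members were chosen on the same DKO values, so this describes the settings and supports nothing. Chit1 ranged from 2.48 to 2.85 against VAV and from 3.11 to 3.65 in the interaction, and Chil5 from 1.43 to 1.85 against VAV. Members that passed in DKO against VAV numbered 4 with DESeq2 (Chil1 and Chil3 added), and 3 in 5 other settings: with Chil3 under array weights, without the erythroid-rich libraries and without VAV replicate 3, and with Chil1 under the pooled control and without VAV replicate 2. In DKO against CDK8KO they numbered 3 without CDK8KO replicate 4 (Chil1 added), and in VAV against WT 1 with array weights and 1 without the libraries rich in erythroid transcripts, an alternative chosen after seeing the data; the cause was not tested. Over all genes DESeq2 passed 504 in DKO against VAV, 711 in DKO against CDK8KO (46.1% higher, against 61.8% by limma), 601 in DKO against CDK19KO, 98 in the interaction, 15 in CDK19KO against WT and 320 in VAV against WT. Over all alternatives, the genes that passed numbered 99 to 504 in DKO against VAV, 31 to 711 in DKO against CDK8KO, 97 to 1251 in DKO against CDK19KO, 10 to 98 in the interaction, 0 to 1 in CDK8KO against VAV, 1 to 15 in CDK19KO against WT and 3 to 1060 in VAV against WT, the highest without the erythroid-rich libraries. Same-numbered libraries correlated between -0.136 and 0.306 in their deviations, so numbers are not pairs; the replicate block gave 196 calls in DKO against VAV and the same number of member calls in each comparison.

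Signs that turned all belonged to members that did not pass, and the cause was not tested. Without the libraries rich in erythroid transcripts, the value was 0.059 for Chil3 in VAV against WT, -0.11 for Chil3 and -0.085 for Ctbs in the interaction, and for Ctbs -0.061 in DKO against VAV and -0.057 against CDK8KO. With array weights it was 0.049 for Chil3 in VAV against WT, and -0.067, -0.054 and -0.027 for Chil3, Chil4 and Ctbs in the interaction. Without the libraries rich in muscle transcripts it was -0.021 for Chil3 in the interaction. With WT and VAV pooled it was -0.035 for Chil5 and -0.11 for Ctbs in CDK19KO against WT and 0.074 for Ctbs in CDK8KO against VAV, where edgeR gave 0.0073 and DESeq2 0.000818. With 1 library left out, CDK8KO against VAV ranged from -0.21 to 0.31 for Chit1, -0.081 to 0.23 for Chil1, -0.40 to 0.067 for Chil4, -0.073 to 0.22 for Chil5 and -0.20 to 0.13 for Ctbs. DKO against CDK8KO ranged from -0.38 to 0.095 for Chil4 and -0.057 to 0.27 for Ctbs, and DKO against VAV from -0.061 to 0.16 for Ctbs. The interaction ranged from -0.15 to 0.13 for Chil3, -0.16 to 0.31 for Chil4 and -0.085 to 0.24 for Ctbs, CDK19KO against WT from -0.034 to 0.14 for Ctbs, and VAV against WT from -0.22 to 0.086 for Chil3. Chit1, with 30 to 49 reads in CDK19KO libraries, has the widest counting error.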

Other observations

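Other myeloid lists were counted in DKO against VAV beside the family. Of 14 late neutrophil genes 13 were lower (median log2 fold change -0.30), and 2 passed by limma, the cytokine gene Il1b (319 normalized counts in DKO and 957 in VAV) and the formyl peptide receptor gene Fpr1 (2399.8 in DKO and 4338 in VAV). Of 12 early granulocyte genes 7 were lower, and the ficolin gene Fcnb passed, with 760.3 in DKO and 5765 in VAV. Of 8 basophil and mast cell genes 6 were higher (median 0.88), and 3 passed, the basophil protease gene Mcpt8 (2099 in DKO and 920.2 in VAV), Prss34 and Fcer1a. Chil1 and Chil3, both known in neutrophils, lay at 159% and 63.2% of VAV in the same libraries. The direction of the neutrophil and granulocyte lists depended on the reference. In VAV against WT, 13 of the 14 late neutrophil genes and 11 of the 12 early granulocyte genes were higher. In DKO against CDK19KO, 8 of the 14 and 8 of the 12 were higher. Against CDK8KO, 10 of the 14 were lower and 9 of the 12 higher.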
